A study of Mus musculus with 16 samples.

Results

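Hepatocyte identity transcription factors are the DNA-binding proteins that keep a liver cell a liver cell. A fixed list of 9 of them was read from the 21959 genes counted in each tumor: Hnf4a, Foxa1, Foxa2, Foxa3, Nr1h4, Nr1i3, Cebpa, Onecut1 and Prox1. They are described over the treatment groups and beside Alb, the gene of serum albumin, which hepatocytes make. The RNA came from liver metastases of 16 male wild-type C57BL/6 mice, 4 in each group. At 6 weeks of age every mouse had received MC38 cells, a mouse colon adenocarcinoma line, by injection into the spleen, from which the cells seed the liver. The control group received PBS. The SB525334 group received this inhibitor of the type I TGF-β receptor (ALK5) daily at 20 mg/kg by mouth, dissolved in CMC-Na, and the KN046 group received an antibody against PD-L1 and CTLA-4 at 10 mg/kg into the peritoneum 2 times a week. The combination group received both agents. All 4 groups therefore carry tumors of 1 cell line in a host with its own liver and immune cells, and whether the control mice also received CMC-Na is not given in the sources used here.

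In the liver these factors form a network in which members bind each other's regulatory regions as well as the genes of plasma proteins, bile acid handling and drug metabolism. HNF4A is the nuclear receptor at its centre. FOXA proteins open chromatin early in liver development, and C/EBPα, HNF6 (Onecut1) and PROX1 act in hepatocyte maturation and metabolism. FXR (Nr1h4) senses bile acids, and CAR (Nr1i3) senses foreign compounds. Some members also work outside hepatocytes: C/EBPα in granulocyte and monocyte precursors, PROX1 in lymphatic endothelium, and FOXA1, FOXA2 and HNF4A in other epithelia of the gut tube. In bulk RNA, fewer cells of a type and less RNA per cell cannot be told apart.

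Counts per mouse summed to between 18368994 and 23877131, and levels below are CPM, read counts scaled to a common library size (edgeR's TMM). Control mice 1 and 2, and control mice 3 and 4, differed less than any other pair of a group, with a median chi-square per gene of 1.25 and 0.956 against 2.82 or more. The number of members that edgeR called against control, and list counts that changed, are therefore also given with these pairs merged. Whether the libraries of a pair come from separate tumors was not tested. The SDs, counts without overlap and exact tests below treat the 4 control mice as separate. The tissue label was checked against defining genes. Summed over 15 hepatocyte genes, the level ranged from 13400 to 15400 CPM in control mice, 324 to 1770 with SB525334, 8680 to 17200 with KN046 and 12.7 to 20.6 with the combination. Of 11 colon and intestinal epithelium genes, 3 were too low to test, among them the intestinal regulators Cdx1 and Cdx2, and Cdx2 had 1 count in the control group and none elsewhere. The cell type behind each member was not measured.

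Promoter sequences are shown for the 4 genes on which the comparisons turn: Alb, Hnf4a, Nr1h4 and Foxa1. Hnf4a fell with Alb, and Nr1h4 fell less than Alb with the combination by summed counts. Foxa1 was not called between any groups in the main edgeR fit of levels. The sequences are stretches upstream of the Ensembl canonical start in GENCODE M39 on GRCm39, the build of the counts, with no annotated exon of the gene itself, written 5′ to 3′ on the gene's strand. Capitals mark letter matches, on either strand, to short motifs of this network:
Alb chr5:90608499-90608646 (+ strand): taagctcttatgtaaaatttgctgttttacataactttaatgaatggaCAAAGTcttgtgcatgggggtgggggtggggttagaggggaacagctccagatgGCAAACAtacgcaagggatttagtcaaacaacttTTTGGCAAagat
Hnf4a chr2:163388863-163389068 (+ strand): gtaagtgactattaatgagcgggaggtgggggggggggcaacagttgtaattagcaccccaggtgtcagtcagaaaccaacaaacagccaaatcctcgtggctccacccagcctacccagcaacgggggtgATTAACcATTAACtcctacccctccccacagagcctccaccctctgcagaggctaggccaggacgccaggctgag
Nr1h4 chr10:89342521-89342761 (- strand): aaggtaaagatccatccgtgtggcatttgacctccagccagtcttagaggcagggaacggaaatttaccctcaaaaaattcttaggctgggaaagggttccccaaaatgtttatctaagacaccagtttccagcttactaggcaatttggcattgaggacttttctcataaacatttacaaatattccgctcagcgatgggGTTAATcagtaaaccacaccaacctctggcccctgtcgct
Foxa1 chr12:57592945-57593194 (- strand): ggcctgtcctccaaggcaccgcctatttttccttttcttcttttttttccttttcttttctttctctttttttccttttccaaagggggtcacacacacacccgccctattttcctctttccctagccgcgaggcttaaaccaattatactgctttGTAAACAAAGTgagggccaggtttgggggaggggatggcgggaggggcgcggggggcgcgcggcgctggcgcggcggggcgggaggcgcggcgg
In the 250 bases before the start, the HNF1 letters GTTAAT occurred in 6.31% of 21579 protein-coding promoters. They matched 2 times in Hnf4a, 75 and 68 bases before the start, once in Nr1h4 at 49 bases, and once in Alb at 52 bases, downstream of the stretch shown. The FOXA letters TGTTTAC (2.72% of promoters) matched only Foxa1 of the 9 members, 94 bases before the start, overlapping a match to the HNF4 letters CAAAGT (13.4%). Alb held CAAAGT at 202 bases, the FOXA letters TGTTTGC (4.35%) at 148 and the C/EBP letters TTGCNNAA (9.38%) at 114. Of the other motifs searched, the ONECUT letters ATCAAT (6.53%) matched Foxa2, the TATA letters TATAAA (11.9%) matched Foxa2, Foxa3 and Cebpa, and the HNF4 letters CAAAGTCCA (0.375%) and ONECUT letters ATCGAT (0.788%) matched no member. These matches describe letters and were not tested for binding.

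Among the members 7 fell with SB525334 and 8 with the combination, while KN046 alone moved none past the threshold. All 9 members passed edgeR's filter on low counts, several of them only through the groups in which they were high. With SB525334, 7 of 9 were lower than control and 0 higher at an adjusted p under 0.05 (edgeR), where 9.22% of the 13968 genes tested were lower. The median log2 fold change of the members was -3.37, against 0.001 for all genes. With the combination, 8 of 9 were lower and 0 higher, where 9.74% of genes were lower. The median of the members was -6.53, or -5.05 with genes without a count set to their bound, against 0.013 for all genes. With KN046, 0 of 9 were called in either direction by edgeR, where 2.40% of genes were lower and 1.60% higher; 2 had an unadjusted p under 0.05, and DESeq2 called 1 lower, where it called 4.58% of genes lower. The mice of the 2 groups did not overlap for 8 members with SB525334 (13.3% of genes were lower without overlap), for 1 with KN046 (6.65%) and for 9 with the combination (12.1%). These 3 comparisons share the control mice. With the similar control pairs merged, 7, 0 and 8 members were called.

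**Figure D1:**
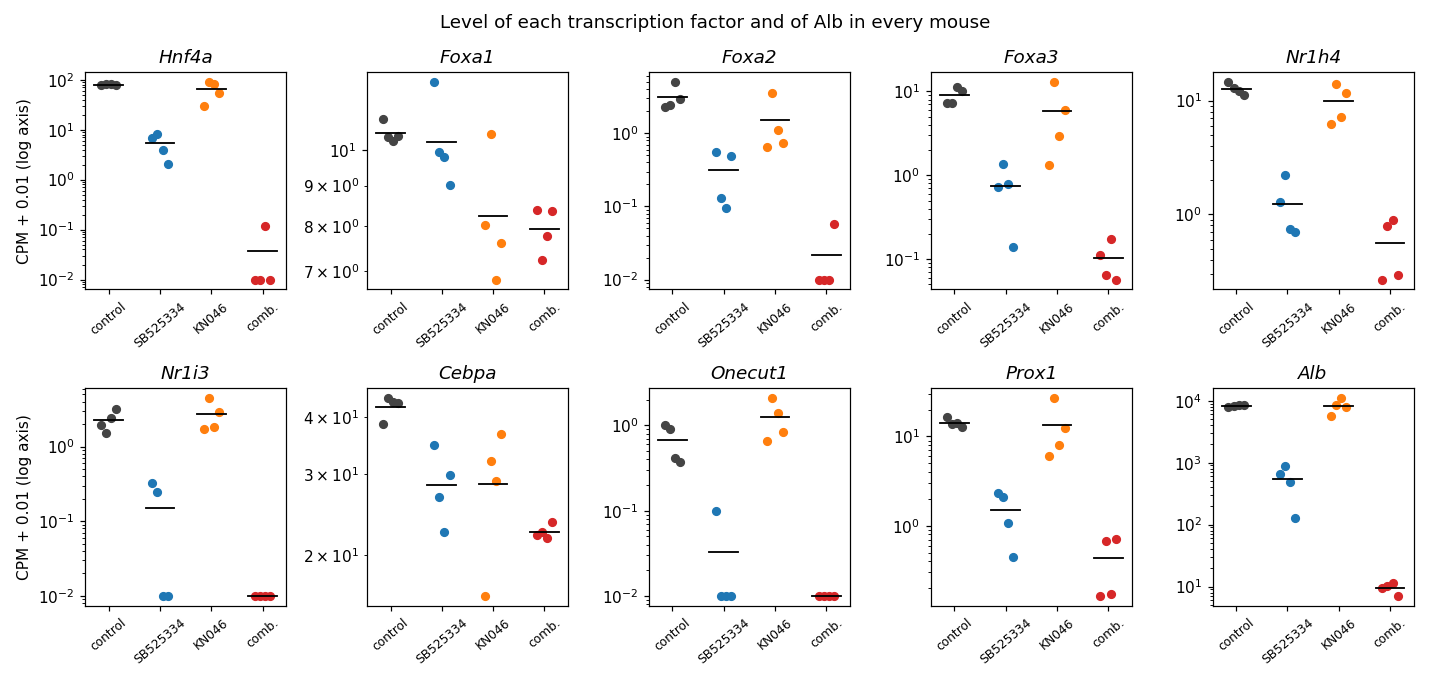
Level of each of the 9 transcription factors and of Alb in every mouse, as CPM plus 0.01 on a log axis whose range differs by panel. Each point is a mouse and each bar the group mean. Of the 9 factors, 7 lie 9.62-fold to 24.7-fold below control with SB525334, the 24.7-fold of Onecut1 resting on 2 counts. Their means lie lower again with the combination, but only Hnf4a was called lower there than with SB525334 (edgeR). Foxa1 and Cebpa stay within the range of 6.82 to 43.9 CPM.

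Hnf4a, the central nuclear receptor of the network (GRCm39 chr2:163348728-163414830, + strand), was at 77.8, 82.7, 80.7 and 78.7 CPM in control mice 1 to 4, a mean of 79.96 ± 2.22 (SD, n = 4). It was at 6.87, 8.32, 4.0 and 2.07 CPM with SB525334, and at 29.2, 91.0, 82.2 and 54.7 CPM with KN046. The combination mice held 0, 0, 2 and 0 counts. Every SB525334 mouse lay below every control mouse, the KN046 mice spread across the control level, and 3 of 4 combination mice had no read of the gene. With SB525334 the level fell 15-fold (log2 fold change -3.91, SE 0.37, adjusted p = 1.3e-06, edgeR). With KN046 the log2 difference was -0.31 (SE 0.32, adjusted p = 0.589). The combination held 0.0324% of the control level by summed counts (95% exact interval 0.00393% to 0.117%, counting error only; adjusted p = 1.7e-09, edgeR). Against SB525334 alone it held 0.484% (0.0584% to 1.76%; adjusted p = 1.4e-05), which was the only member past the threshold between those groups by edgeR. Alb moved alongside: 8185 ± 268 CPM in control, 535 ± 314 with SB525334, 8342 ± 2180 under KN046 and 9.52 ± 1.88 under the combination (SD, n = 4). The log2 fold changes of Alb were -3.94 (SE 0.40, adjusted p = 2.2e-06) with SB525334 and -9.75 (SE 0.53, adjusted p = 4.7e-10) with the combination.

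The 3 FOXA genes, which encode closely related forkhead pioneer factors, parted. Foxa2 (chr2:147884797-147889005, - strand) was at 2.32, 2.41, 5.07 and 2.93 CPM in control mice, 0.542, 0.119, 0.0861 and 0.474 with SB525334, and 0.640, 3.50, 1.12 and 0.727 with KN046. The combination mice held 1 count of Foxa2 in all. Foxa3 (chr7:18747209-18757471, - strand) was at 7.22, 7.19, 11.4 and 10.1 CPM in control mice, 0.723, 1.35, 0.775 and 0.129 with SB525334, 1.33, 13.03, 2.96 and 5.92 with KN046, and 0.103, 0.0552, 0.164 and 0.0471 with the combination. For both genes the SB525334 and combination mice lay below every control mouse, and KN046 mouse 2 was the highest of its group.

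Foxa2 fell with SB525334 (log2 fold change -3.37, SE 0.62, adjusted p = 8.4e-04, edgeR), and so did Foxa3 (-3.57, SE 0.60, adjusted p = 3.4e-04). With the combination Foxa3 fell by 6.53 on the log2 scale (SE 0.79, adjusted p = 6.2e-06), and Foxa2 held 0.413% of the control level (95% exact interval 0.0104% to 2.32%; adjusted p = 1.2e-05, edgeR). Foxa1 (chr12:57587414-57593702, - strand) behaved otherwise. It was at 10.9, 10.4, 10.2 and 10.4 CPM in control mice, 12.2, 9.91, 9.77 and 9.003 with SB525334, 7.995, 10.5, 6.82 and 7.59 with KN046, and 8.37, 7.23, 7.75 and 8.34 with the combination. The SB525334 mice overlapped the control mice, while the combination mice lay just below them. The log2 difference was -0.04 with SB525334 (SE 0.15, adjusted p = 0.939), -0.35 with KN046 (SE 0.15, adjusted p = 0.186) and -0.40 with the combination (SE 0.16, adjusted p = 0.119), none past the threshold.

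The bile acid receptor Nr1h4 (FXR; chr10:89289742-89369497, - strand) was at 14.7, 12.97, 12.2 and 11.2 CPM in control mice and at 1.27, 2.23, 0.732 and 0.689 with SB525334. It was at 6.24, 14.1, 7.21 and 11.7 CPM with KN046 and at 0.257, 0.773, 0.873 and 0.283 with the combination. The combination mice overlapped the SB525334 mice, and both groups lay below every control mouse. The fall was 10.3-fold with SB525334 (log2 fold change -3.36, SE 0.39, adjusted p = 7.6e-06, edgeR) and 23.5-fold with the combination (-4.55, SE 0.44, adjusted p = 3.1e-07). Between combination and SB525334 the log2 difference was -1.19 (SE 0.45, adjusted p = 0.277). Of 13 genes of the FXR axis, 11 were tested; all 11 were lower with SB525334 and with the combination, and 1 was lower with KN046. Across the tested genes the median was -4.21 (log2) under SB525334 and -7.46 under the combination. The bile acid enzyme genes Cyp7a1 and Cyp8b1 were among those lower, and whether the fall of the list follows from that of Nr1h4 was not tested. The bile acid enzyme Slc27a5 went from 58.6 ± 6.29 CPM in control to 0.150 ± 0.166 with the combination, and the phospholipid exporter Abcb4 from 42.4 ± 3.37 to 0.795 ± 0.206. The bile salt export pump Abcb11 went from 38.1 ± 12.6 CPM to 2 counts in all. The gene lower with KN046 was Nr0b2, the repressor SHP that FXR induces, at 1.29 ± 0.823 CPM against 5.42 ± 0.957 in control (log2 fold change -2.06, adjusted p = 0.0289, edgeR), named after its values were seen. With the similar control pairs merged, the call was lost (adjusted p = 0.212), as were those of all genes with KN046.

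The xenobiotic receptor Nr1i3 (CAR; chr1:171041506-171048270, + strand) was at 1.97, 1.52, 2.38 and 3.19 CPM in control mice and 1.71, 4.47, 1.84 and 2.86 with KN046. With SB525334 it was at 0.316 and 0.239 CPM in mice 1 and 2 and at 0 in mice 3 and 4, and all combination mice were at 0. The SB525334 and combination mice thus lay below every control mouse, and the KN046 mice overlapped them. The gene fell with SB525334 (log2 fold change -3.97, SE 0.69, adjusted p = 9.1e-04, edgeR). With the combination it was at least 57.4-fold lower than in control, set against a floor of 3 counts over the group (adjusted p = 6.2e-05). In GENCODE M39, 75.4% of its exon bases are also exon of Tomm40l on the other strand, and the strand setting of the counting is not given in the sources used here, so its level is uncertain. Of 12 CAR target genes, 11 were tested; 10 were lower with SB525334 and 10 with the combination, and 0 with KN046. Cyp3a11, a drug-metabolizing cytochrome P450, was at 197 ± 19.2 CPM in control, 8.46 ± 8.05 with SB525334 and 0.224 ± 0.173 with the combination. Cyp2c29 went from 36.0 ± 1.31 CPM to 3 counts in all with the combination, and Alas1, the first enzyme of heme synthesis, from 71.7 ± 6.19 to 47.1 ± 3.81. The gene not called was Por, which donates electrons to P450 enzymes, at 138 ± 14.5 CPM in control and 125 ± 10.2 with the combination.

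Cebpa (chr7:34818718-34821353, + strand), the leucine zipper factor shared by hepatocytes and myeloid precursors, was at 38.5, 43.9, 43.0 and 42.8 CPM in control mice. It was at 34.7, 26.8, 22.4 and 29.8 with SB525334, 16.3, 32.0, 29.0 and 36.6 with KN046, and 22.03, 22.5, 21.8 and 23.5 with the combination. All treated mice lay below all control mice. The gene fell 1.87-fold with the combination (log2 fold change -0.90, SE 0.18, adjusted p = 0.00184, edgeR; 0.0176 with the control pairs merged). The log2 differences of -0.57 with SB525334 (SE 0.18, adjusted p = 0.0630) and -0.56 with KN046 (SE 0.18, adjusted p = 0.0841) missed the threshold. The SB525334 value was past it in DESeq2 (adjusted p = 0.0397), in a fit of the 8 mice alone (0.0127) and without SB525334 mouse 1 (0.0446), over a range of 0.0127 to 0.250 in 19 alternatives. Of 8 genes of granulocyte and monocyte precursors, 7 were lower than control with SB525334, 6 under KN046 and 5 under both agents (edgeR). With the control pairs merged these were 7, 0 and 1. Their summed level was 90 to 102 CPM in control mice, 36.9 to 48.9 with SB525334, 20.3 to 47.6 with KN046 and 39.7 to 72.8 with the combination. The neutrophil granule gene Prtn3 was at 14.9 ± 1.65 CPM in control and from 0.205 to 7.02 with the combination, Mpo at 10.8 ± 1.5 and from 0.154 to 5.33, and the cytokine receptor gene Csf3r at 17.3 ± 6.32 and 6.61 ± 3.03. Combination mouse 4 held the highest value of Prtn3 and of Mpo, and without it the means were 0.325 ± 0.152 and 0.381 ± 0.205 CPM. The part of these cells in the Cebpa values was not tested.

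Onecut1 and Prox1, which act in hepatocyte development and metabolism, fell with the other members. Onecut1 (HNF6; chr9:74769118-74800594, + strand) was low throughout, at 1.01, 0.899, 0.406 and 0.366 CPM in control mice and 0.640, 2.09, 1.40 and 0.831 with KN046. It had 2 counts in SB525334 mouse 1, none in the other 3 SB525334 mice and none in the combination mice. With SB525334 it held 3.10% of the control level (95% exact interval 0.367% to 11.7%; adjusted p = 0.00158, edgeR). With the combination it was at least 17.7-fold lower (adjusted p = 6.1e-04). Its exons share 37.4% of their bases with Gm20649, a long noncoding RNA gene on the same strand, so its counts are uncertain.

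Prox1 (chr1:189850232-189904637, - strand) was at 16.5, 13.6, 14.3 and 12.8 CPM in control mice, 2.31, 2.11, 1.08 and 0.431 with SB525334, 5.97, 26.9, 7.94 and 12.5 with KN046, and 0.154, 0.662, 0.164 and 0.707 with the combination. The KN046 mice spread to both sides of the control level, and the combination mice overlapped SB525334 mouse 4. The fall was 9.62-fold with SB525334 (log2 fold change -3.27, SE 0.51, adjusted p = 1.5e-04, edgeR) and 33.1-fold with the combination (-5.05, SE 0.59, adjusted p = 3.9e-06). Of 6 genes of lymphatic endothelium, 5 were tested. With the combination 3 were lower: Lyve1, a hyaluronan receptor also on liver sinusoidal endothelium, at 12.6 ± 5.38 CPM in control and 0.146 ± 0.0953, Reln at 11.5 ± 3.69 and 0.156 ± 0.243, and Flt4 at 21.4 ± 14.6 and 6.89 ± 1.41. The list summed to 131 to 152 CPM in control mice, 99.3 to 140 with SB525334, 139 to 207 with KN046 and 116 to 144 with the combination. Pdpn made up most of that sum, at 82.7 to 106 CPM in control mice and 105 to 134 with the combination, and was not called. With SB525334 Lyve1 and Flt4 were lower, and with KN046 Lyve1 was higher at 31.3 ± 8.92 CPM (log2 fold change 1.31, adjusted p = 0.0404, edgeR), a call lost with the control pairs merged (adjusted p = 0.246). The part of endothelium in the Prox1 values was not tested.

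**Figure D2:**
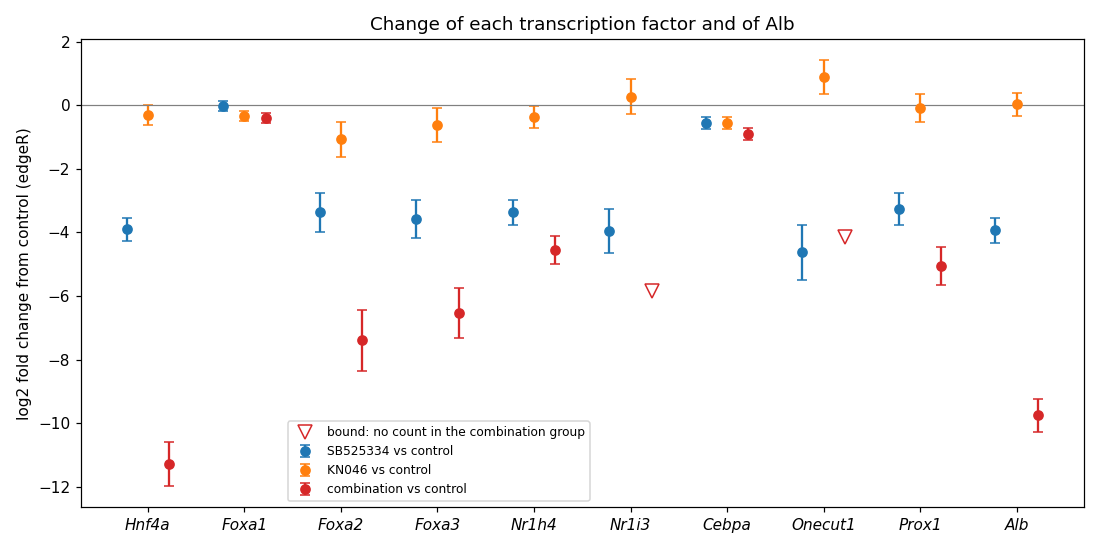
Log2 fold change from control (edgeR) of each transcription factor and of Alb, with bars of 1 standard error, for SB525334, KN046 and the combination; open triangles are bounds for the genes with no count in the combination group, and the true change lies at or below them. With the combination Hnf4a and Alb lie lowest, at -11.29 and -9.75; the points of Hnf4a and Foxa2 rest on 2 and 1 counts and depend on the fit's prior count.

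The combination was also set against each agent alone. Against KN046, 7 of 9 members were lower and 0 higher (edgeR), where 14.5% of genes were lower; Foxa1 (log2 difference -0.05, SE 0.16, adjusted p = 0.833) and Cebpa (-0.34, SE 0.18, adjusted p = 0.177) were not called. Without KN046 mouse 1 the adjusted p of Cebpa was 0.00961, over a range of 0.00961 to 0.480 in 18 alternatives. Against SB525334, edgeR called only Hnf4a lower of the 9, where 3.03% of genes were lower. An unadjusted p under 0.05 was reached by 7 of the 9. Their median log2 difference was -2.18, or -1.81 over 8 members with bounds, against 0.008 for all genes. Several members had few counts left to compare, such as Foxa2 with 28 and 1 (SB525334 and combination) and Nr1i3 with 13 and 0. All 15 hepatocyte genes were called lower in this comparison. Foxa2 (adjusted p = 0.0750) and Foxa3 (log2 difference -2.96, SE 0.88, adjusted p = 0.0863) missed the threshold in edgeR. DESeq2 called 4 members lower, Hnf4a, Foxa2, Foxa3 and Nr1i3, where it called 3.23% of genes lower. The interaction, the change in the SB525334 effect when KN046 was also given, was called lower for Hnf4a alone of the 9 (adjusted p = 2.4e-04, edgeR), where 2.55% of genes were lower; DESeq2 called 2, Hnf4a and Nr1i3, where it called 3.74% of genes lower. For Alb the interaction was -5.84 (log2, SE 0.55, adjusted p = 6.0e-06). The granulocyte and monocyte precursor list ran the other way, with 6 of its 8 genes called higher in the interaction (edgeR), where 242 of 13968 genes were. With the control pairs merged 5 were called higher, where 93 of 14241 genes were.

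The order of the mean levels was the same for 6 members: control, KN046, SB525334 and combination from high to low for Hnf4a, Foxa2, Foxa3, Nr1h4, Cebpa and Prox1. Between SB525334 and the combination edgeR called only Hnf4a apart. For Nr1i3 and Onecut1 the KN046 mean lay above control, at 2.72 and 1.24 CPM against 2.26 and 0.669, and Foxa1 ran control, SB525334, KN046, combination. Between control and KN046 edgeR called no member apart, although the mice did not overlap for Cebpa and DESeq2 gave it an adjusted p of 0.0467. KN046 and SB525334 were called apart for 7 members, all lower with SB525334 (13.5% of genes were lower). Foxa1 (adjusted p = 0.157) and Cebpa (0.991) were not called. For Foxa2 that call was lost without KN046 mouse 2 (adjusted p = 0.0687) or SB525334 mouse 2 (0.0502), over a range of 0.00352 to 0.0687 in 18 alternatives. Without KN046 mouse 2, Foxa1 was called higher with SB525334 (0.0356). Per kilobase of exon, which allows levels of different genes to be set side by side, the control means were 15.95 CPM per kb for Cebpa, 15.9 for Hnf4a, 4.40 for Foxa3, 3.12 for Foxa1, 2.63 for Nr1h4, 1.59 for Prox1, 0.937 for Foxa2, 0.487 for Nr1i3 and 0.115 for Onecut1, against 1604 for Alb.

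Among the mice that received KN046 alone, mouse 2 was the highest of its group in 8 of 9 members and mouse 1 the lowest in 8. Alb had mouse 1 lowest too but mouse 3 highest, at 5742, 8551, 11060 and 8016 CPM in mice 1 to 4. Of the 15 hepatocyte genes, mouse 2 was highest for Apoa1, Apoa2, Ahsg, Fgb, Hpd, Cyp2e1, F9 and Hamp. Mouse 3 was highest for Alb, Ttr, Serpina1b, Cps1, Tat and Cyp3a11, and mouse 4 for Apoc3. How many of all genes shared the rank of the members was not counted. Without mouse 2, edgeR called 3 members lower than control, where 8.34% of genes were lower: Foxa1 (log2 -0.48, adjusted p = 0.0406, range 0.0406 to 0.469 over 19 alternatives), Foxa2 (-1.93, 0.0222, range 0.0222 to 0.541) and Cebpa (-0.61, 0.0486, range 0.0467 to 0.332). Without mouse 4 it called Cebpa alone of the 9, where 1.95% of genes were lower. The KN046 values above therefore depend on which mice are counted.

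**Figure D3:**
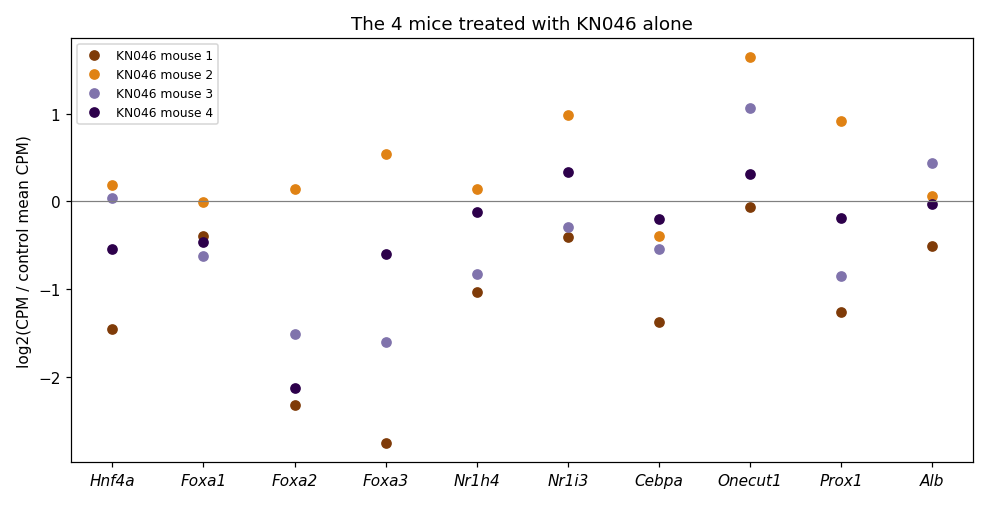
Level of each transcription factor and of Alb in the 4 KN046 mice, as the log2 ratio of its CPM to the control mean, a point per mouse. Mouse 2 lies highest in 8 of the 9 factors and mouse 1 lowest in 8, while Alb has mouse 3 highest. Other hepatocyte genes, not plotted, had mouse 2, 3 or 4 highest.

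Each member was then compared with Alb in the same mouse, as log2 of member counts over Alb counts with 0.5 added to each. The question was whether a factor fell as far as the hepatocyte gene itself. With SB525334 the Hnf4a ratio stayed within reach of control: the log2 ratio was -6.66, -6.61, -6.70 and -6.74 in control mice and -6.56, -6.71, -6.92 and -5.95 with SB525334. In the combination mice, 727 Alb counts in all would carry 7.11 Hnf4a counts at the control ratio, and 2 were seen (95% exact Poisson interval 0.242 to 7.22). The Hnf4a ratio overlapped control with SB525334 and with KN046. In the combination 3 of 4 Hnf4a ratios are set by the 0.5 added, and the overlap rests on the 2 counts of mouse 3, at -6.41. By summed counts, Nr1h4, Prox1 and Foxa3 fell less far than Alb in the combination, where 98.9% of genes lay higher relative to Alb without overlap. At the control ratio 1.14 counts of Nr1h4 were due and 41 were seen (29.4 to 55.6). For Prox1 1.28 were due and 33 seen (22.7 to 46.3), and for Foxa3 0.791 were due and 7 seen (2.81 to 14.4). Foxa3 had 2, 1, 3 and 1 counts in combination mice 1 to 4, so its ratios also lean on the 0.5 added. These intervals cover counting error only, and the exact test over the mice called no member after adjustment. For Foxa2, Nr1i3 and Onecut1, 1, 0 and 0 counts were seen where 0.279, 0.199 and 0.0612 were due, so a departure from Alb was not detectable at this depth. Their plotted ratios are set by the 0.5 added.

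With SB525334 the ratios of 6 members overlapped control, and those of Foxa1, Cebpa and Prox1 lay above it without overlap, by 4.19, 3.65 and 0.73 on the log2 scale (exact two-sided permutation test, unadjusted p = 0.0286 for each). Since most genes did not fall with Alb, 95.4% of the genes tested were higher relative to Alb without overlap. With KN046 only Cebpa lay apart, lower by 0.61 (6.02% of genes were lower without overlap). With the combination Foxa1, Cebpa, Nr1h4, Prox1 and Foxa3 lay above control without overlap, where 98.9% of genes did. Foxa2, Nr1i3 and Onecut1 also lay above it, but only through the 0.5 added to their 1, 0 and 0 counts, and are not counted among these 5. After adjustment over the 27 tests none passed: 12 of the 27 were at the smallest p that 4 against 4 mice allow, 0.0286, and all 12 came to 0.0643. Of these 12, 3 (Foxa2, Nr1i3 and Onecut1 with the combination) were fixed by the 0.5 added. A fit across all genes with the Alb count as offset, added after the data had been seen, tested the same ratio in edgeR. It called 2 members higher relative to Alb with SB525334, where 95.8% of genes were called higher: Foxa1 (log2 4.53, SE 0.62, adjusted p = 4.0e-13) and Cebpa (4.13, SE 0.60, adjusted p = 6.8e-12). With the combination it called 5, where 97.4% of genes were called: Foxa1 (9.40, SE 0.77), Cebpa (8.90, SE 0.74), Nr1h4 (5.14, SE 0.68, adjusted p = 3.8e-14), Prox1 (4.77, SE 0.67, adjusted p = 1.1e-12) and Foxa3 (3.12, SE 0.90, adjusted p = 5.5e-04). The median of all genes was 4.66 with SB525334 and 9.80 with the combination, so Foxa1 and Cebpa lay near it. Hnf4a was not called in that fit with SB525334 (0.17, SE 0.54, adjusted p = 0.760) or the combination (adjusted p = 0.0806).

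**Figure D4:**
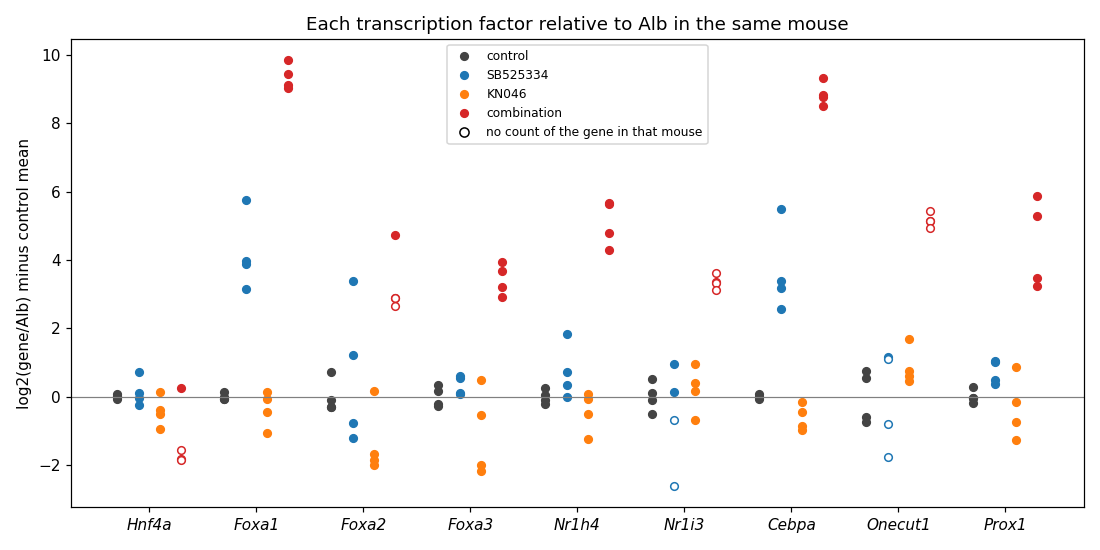
Log2 ratio of each transcription factor to Alb in the same mouse, minus the control mean, for all 16 mice; open circles have no count of the gene and are set by the 0.5 added. Hnf4a stays near 0 with SB525334, and Nr1h4, Prox1 and Foxa3 lie above 0 in every combination mouse, below Foxa1 and Cebpa. With the combination 98.9% of genes lay higher relative to Alb than in control without overlap.

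Of 22 other liver transcription factors, 16 were lower than control with SB525334, 1 (Nr0b2) with KN046 and 16 with the combination, and 0 were higher in any of the 3 comparisons. With the control pairs merged the numbers lower were 14, 0 and 15, and the Nr0b2 call was lost. With the combination their median change was -3.64 (log2), also with 2 genes without a count set to their bound, against 0.013 for all genes; that of the 9 members was -5.05 on the same footing. Mlxipl, the glucose-sensing factor ChREBP, went from 23.3 ± 8.53 CPM in control to 1.22 ± 0.789 with SB525334 and to 2 counts in all with the combination. Creb3l3, a factor of the fasting response, went from 21.5 ± 1.88 to 2.77 ± 1.29 and 0.295 ± 0.163. Rxra, the shared partner of FXR and CAR, went from 95.6 ± 7.59 to 67.7 ± 8.75 and 59.2 ± 3.06 CPM (combination: log2 fold change -0.69, adjusted p = 6.9e-04, edgeR). All 15 tested targets of HNF4A were lower with SB525334 and with the combination, at a median of -3.54 and -9.61 (log2; -8.95 with 3 genes without a count at their bound), and 0 were called under KN046. Trf, the gene of transferrin, went from 4810 ± 1030 CPM in control to 584 ± 158 and 65.9 ± 10.9, Apoa1 from 1680 ± 163 to 144 ± 76.3 and 1.40 ± 0.402, and Ttr from 563 ± 94.3 to 52.3 ± 29.5 and 0.535 ± 0.144. The 15 hepatocyte genes were all lower in both comparisons too, and 4 of them are also in the HNF4A list. The lists were written with earlier results known, so their counts describe the group of genes and are not independent evidence.

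**Figure D5:**
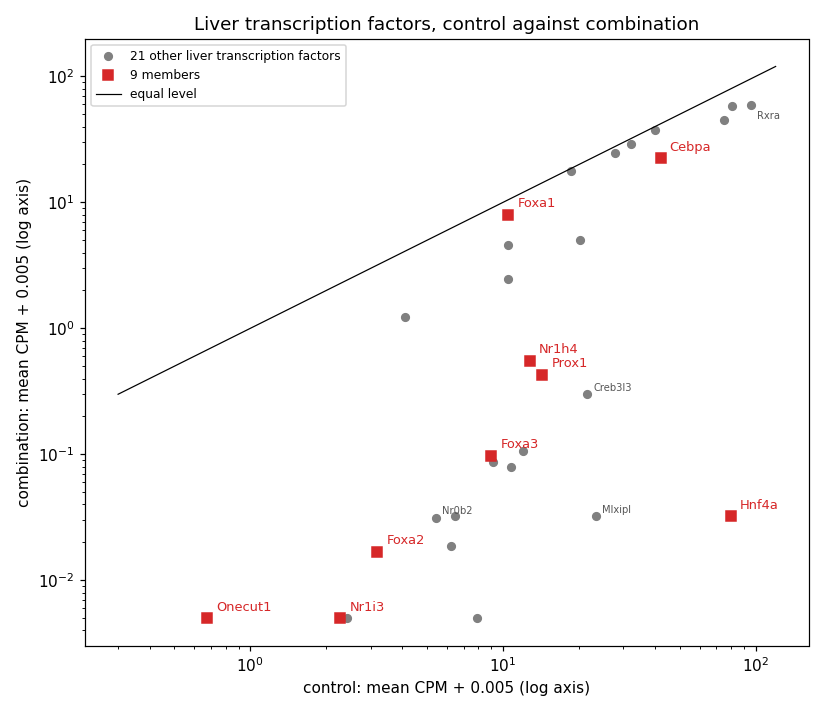
Mean CPM plus 0.005 in the combination group against the control group on log axes, for the 9 transcription factors (squares) and 21 of the 22 other liver transcription factors (circles), with the line of equal level. Hnf4a lies farthest below the line of the 9. Onecut1 and Nr1i3 sit at 0 counts, and their distance from the line is set by the 0.005 added. Foxa1 and Cebpa lie near the line, though Cebpa was called lower with the combination (1.87-fold, edgeR).

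Genes of other epithelia that share FOXA1, FOXA2 or HNF4A were counted beside these values. Of 8 colon and intestinal epithelium genes tested, 2 (Krt18 and Krt8) were lower with SB525334, 0 under KN046 and 4 with the combination, and the list summed to 153 to 251 CPM in control mice, 40.1 to 54.7 with SB525334, 142 to 210 with KN046 and 8.68 to 18.9 with the combination. Krt18 and Krt8, keratins of hepatocytes as well as of simple epithelia, made up most of it, at 86.0 ± 30.3 and 83.3 ± 32.0 CPM in control and 0.335 ± 0.343 and 0.270 ± 0.411 with the combination. The other genes called were the adhesion genes Cdh1, at 20.5 ± 5.89 and 9.50 ± 3.09 CPM, and Epcam. Of 7 cholangiocyte genes tested, 4 were lower with the combination, 1 with SB525334 and 0 with KN046. Merging the control pairs left 3, 1 and 0. Those lower with the combination included Epcam, at 2.60 ± 1.54 and 0.367 ± 0.452, and Krt7, at 1.80 ± 1.36 and 0.363 ± 0.345. Cldn4 was also lower, at 0.893 ± 0.359 in control and 2 counts in all with the combination. The 8 cholangiocyte genes summed to 376 to 491 CPM in control mice, 228 to 384 with SB525334, 367 to 656 with KN046 and 316 to 392 with the combination. Most of that sum was Sox9, at 244 ± 5.11 CPM in control and 206 ± 16.3 with the combination, and Spp1, at 180 ± 59.4 and 150 ± 31.6. Neither was called against control, nor was Krt19, at 3.39 ± 1.46 and 1.81 ± 0.874. Of 8 pancreas genes 1 was tested, Cela1, and it was not called. Of 7 adipocyte genes 3 were tested, and all 3 were lower with the combination and 1 (Pparg) with SB525334. In control and with the combination Fabp4 was at 22.4 ± 3.89 and 3.18 ± 2.04 CPM, Pparg at 3.74 ± 0.173 and 1.36 ± 0.356, and Cidec at 0.545 ± 0.0810 CPM and 0. Merging the control pairs left 2 called with the combination and 1 with SB525334. With KN046 Cidec, a lipid droplet protein gene also of fatty liver, was higher at 5.14 ± 6.13 CPM (log2 fold change 3.23, adjusted p = 0.0400, edgeR). KN046 mouse 1, at 14.2 CPM, carried that mean, the other 3 averaged 2.11 ± 1.12, and the call was lost with the control pairs merged (adjusted p = 0.276). The part of these cell types in the members' values was not tested.

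The genes whose pattern over the 16 mice was most like each member were found among all genes tested, by the root mean square difference of centred log2 CPM, as a description. For Hnf4a they were the plasma protein genes Pzp (0.269) and F2 (0.313) and the retinol dehydrogenase gene Rdh7 (0.297), with Alb at 0.429. For Foxa3 they were Fgfr4 (0.419), the receptor of the bile acid hormone FGF19 and its mouse counterpart, Cyp2c38 (0.446) and Slc17a3 (0.474), for Nr1h4 Abat (0.427), Ndrg2 (0.444) and C130074G19Rik (0.453), and for Prox1 Hjv (0.491), Esrp2 (0.532) and Ppp4r4 (0.534). For Foxa2 they included the epithelial factor Elf3 (0.616) and complement C3 (0.623). For Nr1i3 they were Ppp4r4 (0.423), Slc22a27 (0.459) and Dnase2b (0.506), and for Onecut1 Acss3 (0.360), Map7 (0.524) and Nipal1 (0.538). Foxa1 was nearest to Prkag2 (0.139), D630045J12Rik (0.142) and Map3k5 (0.144), and Cebpa to Boc (0.177), Marchf3 (0.189) and Lpcat3 (0.194). Foxa1 and Cebpa differed from each other by 0.343 and from Alb by 3.97 and 3.81.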

How the data were processed

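Tumor RNA of 16 mice was sequenced, 4 per group. Per the submitters' processing notes, which name cutadapt 2.7, HISAT2 2.2.1, HTSeq 2.0.4, DESeq2 1.38.3 and GRCm39, the authors deposited raw counts per gene. The authors also deposited normalized values, treated here as a score: 100.0% lay within 1 of the raw count divided by a size factor. Strand and multi-mapping settings are not given in the sources used here. Groups came from the sample titles, and p-values measure the spread between these samples. The counts were fitted in R 4.3.3 with edgeR 4.0.16 (TMM, filterByExpr with a minimum count of 10, 1 quasi-likelihood fit of the 4 groups, Benjamini-Hochberg adjustment over 13968 genes, threshold 0.05). DESeq2 1.42.0, limma 3.58.1 on log2(normalized value + 1), other scalings and filters, fits of 8 mice, a replicate block, merged control pairs and each mouse left out were alternatives. The fit with Alb as offset and the alternatives for SB525334 against KN046 were chosen after seeing the data. Ratios to Alb were tested by exact permutation in SciPy 1.17.1. Intervals are 95% and exact, and a group at 0 was set to a floor of 3 counts. Intervals and floors cover counting error only. Gene positions came from GENCODE M39, which held 21770 of 21959 identifiers. The fit was checked on simulated data.

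The members and all lists were chosen with earlier results of these data known. Named genes were the 9 members and Alb, and the 3 genes most like each member. In each list they were the 3 genes with the highest control CPM among those lower with the combination, and any called higher than control. List genes called higher only in other comparisons were not added. Cdx1, Cdx2, Nr0b2, Por, Epcam as a colon gene, Cldn4 and Cela1 fall outside this rule and were named after their values were seen. The same holds for Sox9, Spp1, Krt19, Spi1, Pdpn, Cyp7a1 and Cyp8b1. Values of 2 genes that the rule names are not reported here.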

Additional observations from a re-analysis of the deposited data

Results flagged for a closer look

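In 4 of 38 groups of 4 mice a single mouse lay far from the other 3, where chance flags about 1 in 20 groups. In 3 of the 4 the other mice were all at 0, so the measure is at its maximum by construction. Hnf4a was at 0.109 CPM in combination mouse 3 and at 0 in the other 3. Foxa2 was at 0.0471 CPM in combination mouse 4 and at 0 in the others, and Onecut1 at 0.0904 CPM in SB525334 mouse 1 and at 0 in the others; each of these 3 rests on 1 or 2 counts. Foxa2 was at 3.50 CPM in KN046 mouse 2 and between 0.640 and 1.12 CPM in the other KN046 mice.

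The effect of SB525334 differed with and without KN046 for Hnf4a: the interaction was -7.06 in log2 units (SE 0.95, adjusted p = 2.4e-04, edgeR), a fitted value that rests on 2 counts in the combination group. It also differed for Alb, at -5.84 (SE 0.55, adjusted p = 6.0e-06, edgeR). With the control pairs merged these were -7.10 and -5.84.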

How the results depend on the processing

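Calls of single genes kept their direction and side of the threshold in 1304 comparisons with an alternative; 27 gained a call, 4 lost one and 21 changed sign, all of the last near 0 and not called. The counts of members called that moved by over 1.5 times were the following. With KN046 DESeq2 called 1, and leaving out a mouse gave 0 to 3 (3 without KN046 mouse 2). For the combination against SB525334 the count of 1 became 4 in DESeq2 and 1 to 2 with a mouse left out. It became 6 with the study's thresholds (unadjusted p under 0.05 and 2-fold in DESeq2), where 670 of 21959 genes were lower. In limma it became 3, where 468 of 13968 genes were lower. For the interaction the count of 1 became 2 in DESeq2 and 5 with the study's thresholds, where 648 of 21959 genes were lower. With Alb as offset, 2 members with SB525334 and 5 with the combination differed from Alb, against 0 in the exact test. The cause of these shifts was not tested. The other counts stayed within 1.5 times: SB525334 against control, 7, became 8 in DESeq2 and 6 with a mean of at least 1 CPM, and 7 to 8 with a mouse left out; the combination against control, 8, became 7 with the study's thresholds, with that filter and in the fit of 8 mice; and against KN046 the counts for SB525334 and the combination, 7 each, ran from 6 to 8. Merging the control pairs left 7, 0 and 8 members called, while calls over all genes went from 559 to 0 with KN046.

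Sign changes were as follows. Cebpa between SB525334 and KN046 (log2 -0.004) came to 0.025 with upper-quartile scaling, 0.0517 with library totals, 5e-04 without a filter, 0.0198 with the replicate block, 0.0411 in limma and -0.19 to 0.151 with a mouse left out. With library totals Foxa1 with SB525334 came to 2e-04 and Alb with KN046 to -4e-04. With a mouse left out, the ranges were -0.124 to 0.02 for Foxa1 with SB525334, -0.0952 to 0.107 for its interaction, -0.123 to 0.0778 for Foxa1 between combination and KN046, and, with KN046, -0.689 to 0.15 for Prox1, -0.0728 to 0.48 for Nr1i3 and -0.135 to 0.171 for Alb. Onecut1 between combination and SB525334 could not be given without SB525334 mouse 1.

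Replicate numbers did not mark pairs: same-numbered mice of different groups had correlated deviations of -0.37 to 0.407 over 24 pairs, and differently numbered mice -0.397 to 0.398 over 72. With the replicate block 7, 0 and 8 members were called with SB525334, KN046 and the combination, and 1 in the interaction. Members with 0 to 2 counts in a group limit what depth can show.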
